A study of Ovis aries and Bos taurus with 10 samples.

Results

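The oocyte and the granulosa cells (GC) of the sheep primary follicle were compared through 2 arrays, named PMO for the oocytes and PMG for the GC. They are 2 of the 10 arrays of the series, and the other 8 hold the primordial and secondary stages (PDO and SECO for oocytes, PDG and SECG for GC) and whole fetal ovaries. Both cell types were cut out of frozen ovarian sections of newborn lambs, less than 1 day old, by laser capture microdissection (LCM), in which a laser lifts cells picked under the microscope. A follicle counted as primary when cuboidal GC formed a single layer around its oocyte. RNA of 4 animals was pooled for each array, went through a double T7 amplification, and was hybridized to the Affymetrix Bovine Genome Array, so sheep transcripts were read with cattle probes. There was no mutant or treated group and no replicate. With 1 pool a side no difference could be tested and the spread between animals is unknown, so every value below compares 2 hybridizations. No probe or genome sequence was used here.

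In a primary follicle the oocyte is held in meiotic prophase, has begun to grow, and builds its coat, the zona pellucida. It secretes GDF9 and BMP15, growth factors of the TGF-beta family that act on the surrounding GC. The GC return KIT ligand, nutrients through gap junctions, and proteins such as activin, inhibin and follistatin, and a basal lamina separates them from the stroma and vessels outside. Neither cell can complete follicle growth without the other.

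Values are MAS 5.0 signals, a brightness per probe set that the authors scaled to an array mean of 100 after trimming. The array holds 24016 probe sets beside controls, and the 10178 that were among the brightest 35% on PMO or on PMG were ranked. The lower limit of that 35% was a signal of 60.1 on PMO and 59.7 on PMG. Of the ranked probe sets 6634 passed on both arrays, 1772 on PMO alone and 1772 on PMG alone. Differences are given as log2(signal + 20), PMO minus PMG, so a positive value is higher in oocytes and 1 is 2-fold. The constant of 20 keeps low signals from dominating, and it makes the difference of a dim gene smaller than the ratio of its signals. The probe set with the highest mean signal stood for each gene, which left 5631 ranked genes of 9155, 4062 of them on both arrays. A gene that passed on 1 array alone had to lean towards that array, and counts over the genes on both arrays are therefore given too. Where a fold is given for a gene under the limit on 1 array, it is a lower bound, the bright signal over the limit of the dim array. Elsewhere the 2 signals of such a gene stand alone, and their ratio is not to be read as its fold. Of 383 genes 2-fold higher in oocytes and under the limit on PMG, 106 had a bound of 2 or more. On the GC side 94 of 352 such genes did.

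At least 2-fold higher in oocytes were 1225 ranked probe sets, 12.0% of those ranked, and 1221 (12.0%) were at least 2-fold higher in GC. For 4-fold the counts were 154 (1.51%) in oocytes and 136 (1.34%) in GC. Counted by gene, 631 (11.2%) were 2-fold higher in oocytes and 567 (10.1%) in GC, and 68 (1.21%) each way reached 4-fold. Among the 4062 genes on both arrays, 248 (6.11%) were 2-fold higher in oocytes and 215 (5.29%) in GC, and 8 (0.197%) and 11 (0.271%) reached 4-fold in oocytes and in GC. The last gene inside the 2-fold limit on the oocyte side was CLYBL with 146 in oocytes and 62.9 in GC, and the first outside was LMO7 with 70.4 and 25.2 in the same order. On the GC side MFN2 was just inside, with 88.4 in oocytes and 197 in GC, and MDFIC just outside, with 29.7 in oocytes and 79.3 in GC. The median difference was -0.0063 over probe sets (SD 0.89 over probe sets) and 0.05 over genes. Both arrays were scaled to one mean, so a median near 0 says nothing of their overall brightness. Of the ranked probe sets 49.7%, and of the ranked genes 52.4%, were higher in oocytes by any amount.

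**Figure D1:**
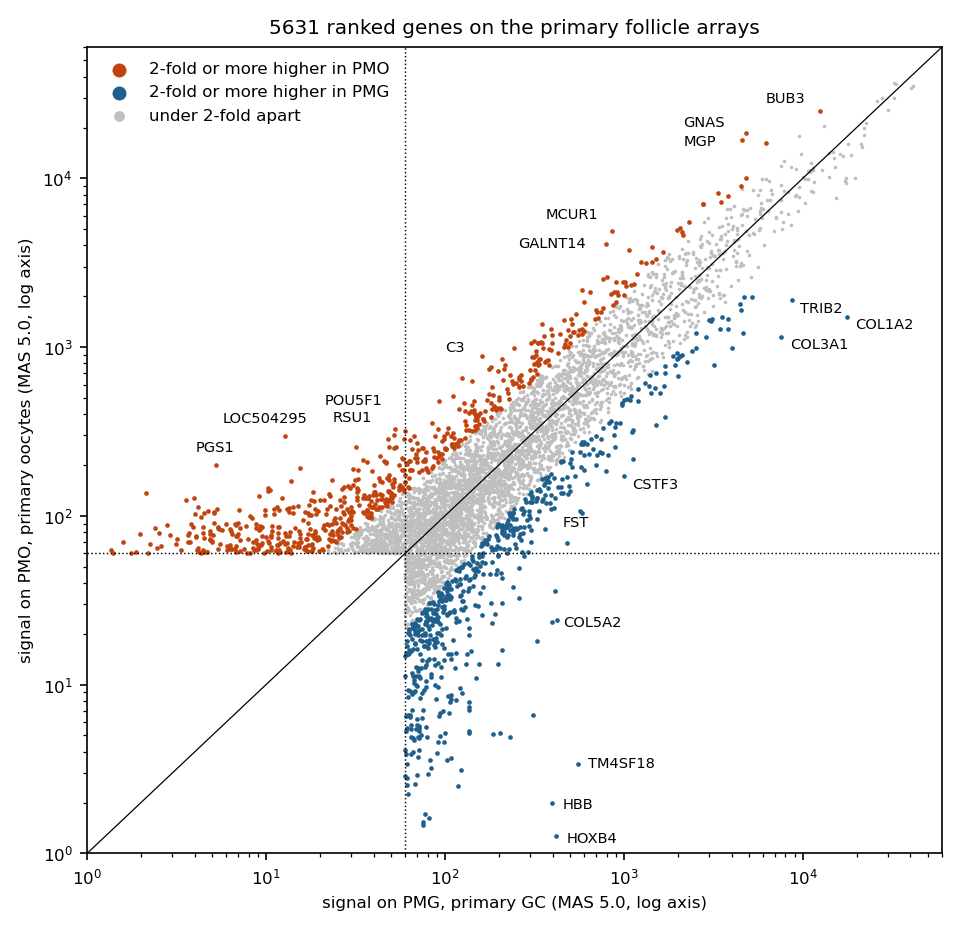
Signal on PMO (vertical axis) against signal on PMG (horizontal axis) for the 5631 ranked genes, both on log axes. Dotted lines mark the limits of 60.1 and 59.7, and coloured points are at least 2-fold apart after adding 20. COL1A2 and COL3A1 stand apart among bright genes on the GC side, while TM4SF18, HBB and HOXB4 are bright on PMG alone.

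The 15 possible pairs of LCM arrays give a scale for these counts. PMO and PMG were 2-fold apart at 24.0% of their ranked probe sets, the tenth of the 15 pairs from the least different. The primordial oocytes and GC differed at 18.2% and the secondary at 20.4%, so the primary pair was the most different of the 3 stages. Yet 2 arrays of one compartment differed at 17.0% (PDO and PMO) to 25.6% (PMO and SECO). The pairs from one stage and those from one compartment thus covered overlapping ranges. The paper reports for PMO and PMG the lowest shares of probe sets called present among the LCM arrays. It also gives them the highest scale factors, the multipliers that bring an array to the common mean. The part of this in the order of the stages was not tested. The transcripts of Bacillus subtilis that were added to the RNA before amplification had a median signal of 41.1 on PMO and 89.8 on PMG, and 22 of their 24 probe sets were brighter on PMG, with a median log2 difference of -1.07. The controls added at hybridization had a median log2 difference of -0.08. The spiked transcripts thus made up a larger share of the signal on PMG, and their part in the differences between the cells was not tested.

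**Figure D2:**
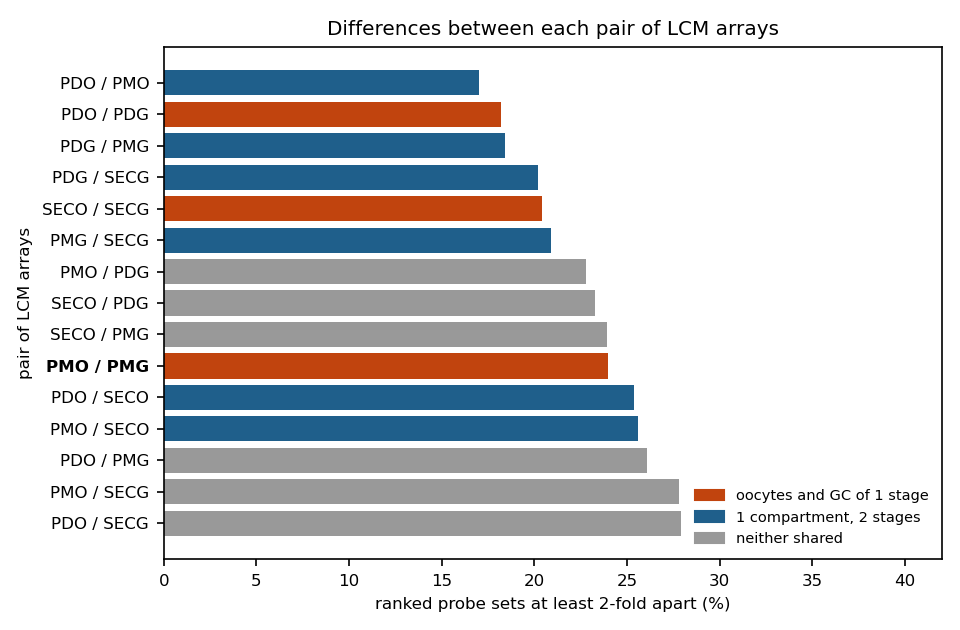
Percentage of ranked probe sets at least 2-fold apart (horizontal axis) for each pair of the 6 LCM arrays (vertical axis), each pair ranked on its own arrays. The primary oocytes and GC (24.0%) lie above the primordial (18.2%) and secondary (20.4%) pairs, within the range of pairs from one compartment (17.0% to 25.6%).

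The oocyte markers were mostly higher in oocytes, by less than 2-fold. Of 10 on the array 9 were ranked, 7 were higher in oocytes, and 1 was 2-fold higher, near the 11.2% of all genes, with a median log2 difference of 0.73. POU5F1, the pluripotency and germ line transcription factor, had 417 in oocytes and 140 in GC, a fold of 2.98. GDF9 had 476 in oocytes and 240 in GC, a fold of 1.98. BMP15 had 82.8 in oocytes and 41.8 in GC, where it was under the limit, and its other probe set was at 5.43 and 8.95 in the same order. The zona pellucida proteins ZP2 and ZP3 had 1946 and 2720 in oocytes against 1083 and 1508 in GC. ZP4, of the same coat, had 1327 in oocytes and 1481 in GC. KIT, the receptor on the oocyte for KIT ligand, had 558 in oocytes and 354 in GC. MAEL, which guards the germ line against transposons, had 411 in oocytes and 323 in GC, and its other 2 probe sets were also higher in oocytes. NLRP5, also called MATER and needed by the early embryo, ran the other way with 401 in oocytes and 596 in GC. In primordial follicles BMP15 (log2 difference -0.57) and GDF9 (-0.11) leaned to the GC and the other ranked markers to the oocyte. In secondary follicles ZP2 (-1.53), ZP4 (-0.97), KIT (-0.09) and GDF9 (-0.06) leaned to the GC and the others to the oocyte. BMP15 was under the limits at both of these stages. On PMG 8 of the 10 oocyte markers lay above the limit, and their summed signal was 8357 on PMO and 5820 on PMG. Probe sets of oocyte markers were thus bright on the GC array. The cause of that signal and its part in the differences were not tested. Markers of germ cells such as DAZL, FIGLA, NOBOX and ZAR1 had no symbol on the array and were not analysed here.

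Most ranked GC markers were higher in GC. Of 16 on the array 8 were ranked, and 6 of these were 2-fold higher in GC, against 10.1% of all genes, with a median log2 difference of -1.19. FST, which encodes follistatin, the binder of activins and BMPs, had 111 in oocytes and 410 in GC, 3.69-fold lower in oocytes. GJA1, connexin 43, the gap junction protein of GC, had 1800 in oocytes and 4437 in GC. The adhesion protein N-cadherin (CDH2) had 23.5 in oocytes and 91.6 in GC, and the epithelial keratin KRT8 had 17.6 and 81.5 in the same order. HSD17B1, which converts estrone to estradiol, had 37.3 in oocytes and 102 in GC. CDH2, KRT8 and HSD17B1 were under the limit on PMO, so each had to lean towards the GC. INHBA, the shared subunit of activin A and inhibin A, had 110 in oocytes and 244 in GC, and INHA, the inhibin alpha subunit, had 105 in oocytes and 200.3 in GC. The transcription factor GATA4 did not separate the cells, with 101 in oocytes and 88.7 in GC. Several defining GC genes were dim on both arrays and were not ranked. AMH was at 3.03 in oocytes and 13.6 in GC, KITLG at 18.2 and 3.39, FOXL2 at 25.8 and 50.8, and FSHR at 36.5 and 39.3, each with oocytes first. In a wider list of 29 genes of GC, 7 of 19 ranked (36.8%) were 2-fold higher in GC, among them SERPINE2, a protease inhibitor, with 138 in oocytes and 454 in GC. Among the 14 of that list on both arrays 4 were 2-fold higher in GC, against 5.29% of all such genes. NR0B1 and IRX3, transcription factors of somatic gonad cells in the mouse, were 2-fold higher in oocytes, with 103 and 81.1 in oocytes against 17.1 and 10.8 in GC.

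Connective tissue genes lay mostly on the GC side. Of the 32 ranked genes of stroma and matrix 11 (34.4%) were 2-fold lower in oocytes and 0 higher, against 10.1% and 11.2% of all genes, with a median log2 difference of -0.77 against 0.05 over all genes. Among the 24 on both arrays 8 were 2-fold lower in oocytes, against 5.29% of all genes on both arrays. COL1A2, a chain of type I collagen, had 1515 in oocytes and 17717 in GC, 11.7-fold lower in oocytes, and its other probe set had 970 in oocytes and 6737 in GC. COL3A1, type III collagen, had 1152 in oocytes and 7585 in GC, 6.58-fold lower, again with both probe sets the same way. With the constant of 20 added, these were the 2 largest differences among genes measured on both arrays. By the plain ratio of signals SMARCAD1 (6.91-fold lower in oocytes) was above COL3A1. COL5A2, a chain of type V collagen, had 23.4 in oocytes and 399 in GC, at least 6.64-fold lower. COL1A1, the other chain of type I collagen, was far dimmer and closer, with 161 in oocytes and 199 in GC. The small proteoglycans of collagen fibrils DCN and LUM had 1467 and 20.3 in oocytes against 3821 and 93.2 in GC.

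The basal lamina proteins belonged to the same list. COL4A1, the network collagen of basal laminae, had 169 in oocytes and 480 in GC, and NID1, which links that network to laminins, had 171 and 534 in the same order. The laminin chain LAMB1 had 268 in oocytes and 575 in GC, whereas LAMC1, another laminin chain, had 2661 in oocytes and 2110 in GC. The fibrillin FBN1 had 561 in oocytes and 1192 in GC, and COL15A1, a collagen beside basal laminae, had 45.7 and 206. FN1, fibronectin, had 111 in oocytes and 269 in GC, but its other probe set, not ranked, went the other way. Outside the list COLGALT1, which adds galactose to collagen, had 13.3 in oocytes and 198 in GC, at least 3.29-fold lower. COL11A1 had 16.0 in oocytes and 209 in GC by its brightest probe set, and its other 2 ranked probe sets were slightly higher in oocytes.

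Genes of smooth muscle and contractile cells were also lower in oocytes, 6 of 11 ranked (54.5%, against 10.1% of all genes) by 2-fold or more and 1 higher (9.09%, against 11.2%), with a median of -1.08. MYLK, the kinase that switches on smooth muscle myosin, had 991 in oocytes and 4046 in GC, and MYH11, its myosin heavy chain, had 336 in oocytes and 897 in GC. The tropomyosins TPM2 and TPM1, which wind along actin filaments, had 107 and 534 in oocytes against 568 and 1418 in GC. CALD1, caldesmon, had 274 in oocytes and 600.3 in GC. The defining muscle markers ACTA2 and CNN1 had 49.6 and 73.7 in oocytes against 99.4 and 109 in GC, and DES and TAGLN were under the limit on both arrays. Among actin and cell shape genes 8 of 50 (16%) were 2-fold lower in oocytes and 4 (8%) higher, against 10.1% and 11.2% of all genes. The intermediate filament protein vimentin (VIM) had 1287 in oocytes and 3438 in GC, and TPM4 had 1668 in oocytes and 4520 in GC. On the other side EZR, which ties actin to the cell membrane and its microvilli, had 1222 in oocytes and 520.0 in GC. ARPC2, a subunit of the complex that branches actin, had 2032 in oocytes and 932 in GC.

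The markers of stroma and smooth muscle are largely genes of these 2 lists, so their sums restate the same signals. The summed signal of 9 stroma markers was 5085 on PMO and 30007 on PMG, most of it from COL1A2 and COL3A1, and without those 2 it was 2417 on PMO and 4705 on PMG. OGN, a small proteoglycan, ran the other way with 519 in oocytes and 286 in GC, as did POSTN, periostin, with 59.5 and 14.8, under the limit on both arrays. The sum of 8 smooth muscle markers was 1568 on PMO and 5303 on PMG, while 10 endothelial markers came to 998 and 1094. The endothelial phosphatase PTPRB had 49.1 in oocytes and 258 in GC and PECAM1 had 82.8 and 231, with its other probe set the other way, but the angiopoietin receptor TEK had 548 in oocytes and 373 in GC. In the wider list of endothelium and angiogenesis 5 of 15 ranked genes (33.3%, against 10.1% of all genes) were 2-fold lower in oocytes. In that list 2 (13.3%, against 11.2%) were 2-fold higher, and among its 7 genes on both arrays 2 were 2-fold lower. Fewer cells of one type and less of its RNA per cell cannot be told apart in captured material, and the part of stroma in the GC differences was not tested. Over the 3 stages the stroma sum in oocytes was 16209 in primordial, 5085 in primary and 16526 in secondary follicles, against 48275, 30007 and 13147 in GC. COL1A2 on PMO (1515) was below PDO (8988) and SECO (8749). Without COL1A2 and COL3A1, a choice made after seeing the data, the sums were 2456, 2417 and 2893 in oocytes of the 3 stages, against 7535, 4705 and 2749 in GC, so the other 7 markers hardly set PMO apart from PDO, SECO and SECG.

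**Figure D3:**
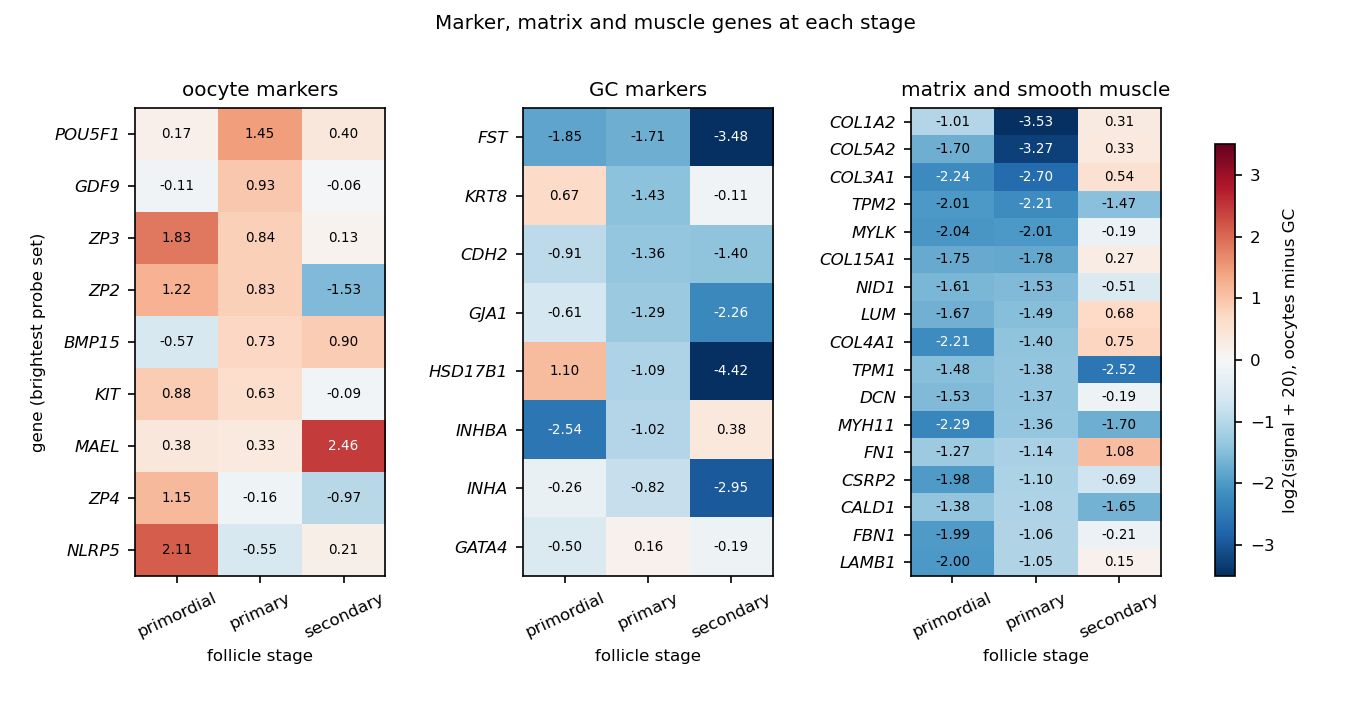
Log2(signal + 20) difference, oocytes minus GC (colour and printed value), of the ranked oocyte markers, the ranked GC markers, and the matrix and smooth muscle genes that were 2-fold lower in primary oocytes (rows), at each stage (columns). All 11 matrix genes were also 2-fold lower in primordial oocytes, and 8 of them were higher in secondary oocytes than in secondary GC.

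The 30 genes furthest to the oocyte side included 4 that were measured on both arrays. MCUR1, which regulates calcium entry into mitochondria, had 4857 in oocytes and 860 in GC, a fold of 5.65. GALNT14, which starts O-linked sugar chains on proteins, had 4091 in oocytes and 791 in GC, a fold of 5.17. PLLP, a membrane raft protein known from myelin, had 657 in oocytes and 124 in GC, a fold of 5.28. C3, the central complement protein, had 888 in oocytes and 161 in GC, and a further probe set had 317 in oocytes and 71.9 in GC. Of these MCUR1, GALNT14 and PLLP were also at least 2-fold higher in primordial oocytes, and none of the 4 was in secondary oocytes.

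Next among genes on both arrays came EXT1, which builds heparan sulfate chains, with 478 in oocytes and 93.2 in GC. GPC4, a membrane-anchored carrier of such chains, had 740 in oocytes and 176 in GC. KAT8, the acetyltransferase of histone H4, had 319 in oocytes and 59.7 in GC, at the limit of that array. MRPL24, of the mitochondrial ribosome, had 514 in oocytes and 111 in GC. GOT2, a mitochondrial aminotransferase, had 844 in oocytes and 210 in GC, but its other probe set had 243 in oocytes and 233 in GC. ACADSB, which oxidizes short branched-chain acyl-CoA, had 1366 in oocytes and 349 in GC. The adhesion molecule CADM1 had 766 in oocytes and 181 in GC, and the lipid transfer protein PITPNA 632 in oocytes and 142 in GC. KCTD9 had 983 in oocytes and 244 in GC, and its other probe set leaned the same way.

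GNAS and MGP were by far the brightest of these 15. GNAS encodes the stimulatory G protein alpha subunit, which couples receptors to cyclic AMP, and had 18601 in oocytes and 4786 in GC. A second probe set of GNAS had 2043 in oocytes and 890 in GC, while another had 3430 in oocytes and 5854 in GC, so its probe sets did not share one direction. MGP, matrix Gla protein, an inhibitor of calcification, had 16904 in oocytes and 4595 in GC, with 1 of its 4 ranked probe sets the other way. On SECO the brightest probe set of MGP stood at 1050, against 9823 on SECG.

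**Figure D4:**
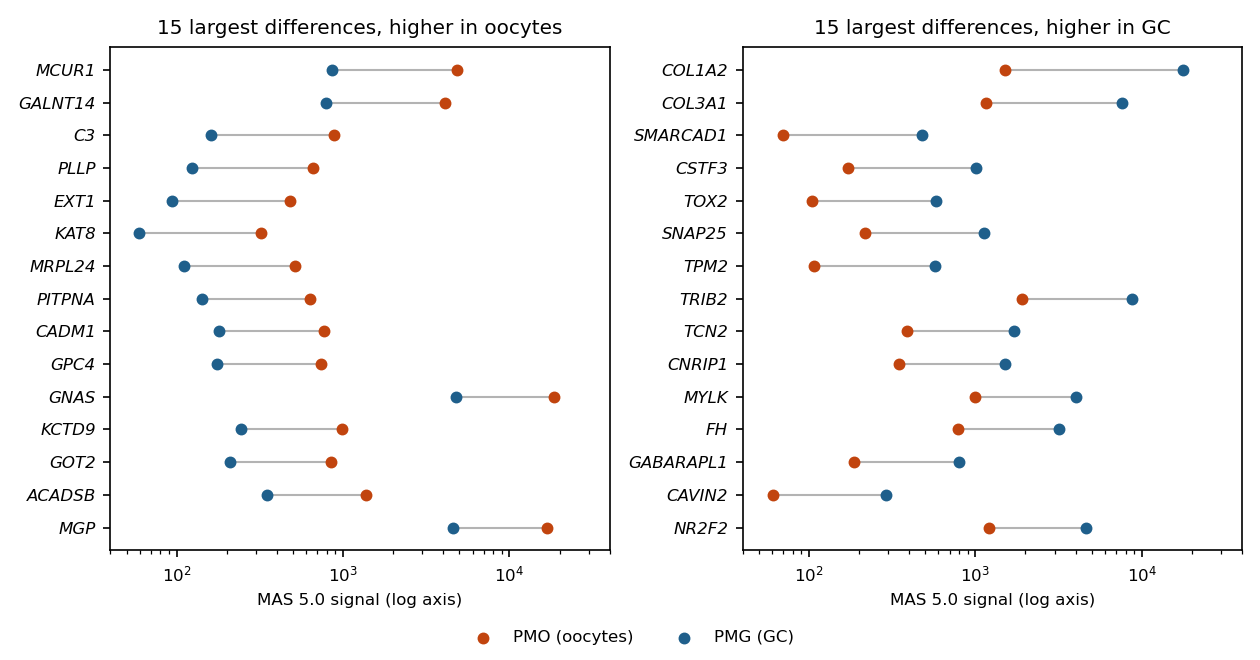
Signals on PMO and PMG (log axis) of the 15 genes furthest to the oocyte side (left) and the 15 furthest to the GC side (right) among genes within the brightest 35% on both arrays. The gap is widest for COL1A2 (1515 on PMO, 17717 on PMG) and on the oocyte side for MCUR1 (4857 on PMO, 860 on PMG).

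The other 26 genes of the oocyte side were under the limit on PMG. LOC504295 had 298 in oocytes and 12.8 in GC, at least 4.99-fold higher, and RSU1, a suppressor of Ras signalling at integrin adhesions, had 328 in oocytes and 52.4 in GC, at least 5.50-fold. THAP3 had 257 in oocytes and 31.9 in GC, but its other 2 probe sets, not ranked, ran the other way. PGS1, which makes the precursor of the mitochondrial lipid cardiolipin, had 201 in oocytes and 5.26 in GC, at least 3.36-fold. RNF2, the ubiquitin ligase of Polycomb repressive complex 1 that marks histone H2A, had 192 in oocytes and 15.5 in GC, at least 3.21-fold. WDR5, which presents histone H3 to its methyltransferases, had 160.2 in oocytes and 13.7 in GC, and a second probe set had 117 in oocytes and 54.2 in GC. For AURKAIP1, a component of mitochondrial ribosomes, the values were 142 in oocytes and 10.6 in GC. PPP1R13L, an inhibitor of p53, had 147 in oocytes and 10.3 in GC. UMPS, which makes the pyrimidine nucleotide UMP, had 108 in oocytes and 7.06 in GC. TEAD3, a DNA-binding partner of the Hippo pathway, had 128 in oocytes and 12.3 in GC. The remaining genes were PLAC8B, ALDH16A1, FRMD3, AP3S2, DNAJC6, MOCS1, LDB3, LDLRAD4, ST14, SEC11C, RIOK3, TMEM187, TOM1L1, PXMP4, HMGXB4 and DYDC2, between 84.4 (HMGXB4) and 140.3 (DNAJC6) in oocytes and at most 10.2 (DNAJC6) in GC. Of all 30 genes 18 had a single probe set.

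On the GC side 26 of the 30 largest differences were of genes under the limit on PMO. TM4SF18, a membrane protein of the L6 family, had 3.38 in oocytes and 553 in GC, at least 9.21-fold lower in oocytes. HOXB4, a homeobox transcription factor, had 1.26 in oocytes and 419 in GC, at least 6.97-fold lower. FGL2, a fibrinogen-like protein, had 24.0 in oocytes and 426 in GC. MTFMT, which formylates the mitochondrial initiator tRNA, had 35.9 in oocytes and 410 in GC. TYRO3, a receptor kinase for Gas6 and protein S, had 4.92 in oocytes and 231 in GC. HAUS5, of the augmin complex that seeds spindle microtubules, had 18.0 in oocytes and 327 in GC. UQCRC1, of respiratory complex III, had 5.16 in oocytes and 202 in GC. Several of these genes were low on PMO alone, so primordial and secondary oocytes also carried their signal. On the other LCM arrays TM4SF18 lay between 165 and 1019 and TYRO3 between 110 and 343. HAUS5 lay there between 100.4 and 327, and UQCRC1 between 81.3 and 202. ISG15, the ubiquitin-like protein induced by interferon, had 5.10 in oocytes and 186 in GC. The rest, RASSF1, S100A4, EPDR1, SNRNP70, NEFL, DGKZ, PTGS1, TRIM38, TAFA5, AHSG, CAPN7, PAQR6 and PTPRG, lay between 103 (PAQR6) and 258 (AHSG) in GC.

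Beside the collagens, MYLK and TPM2, the 15 genes furthest to the GC side among those on both arrays had varied roles. SMARCAD1, a chromatin remodeller, had 69.5 in oocytes and 480 in GC, 6.91-fold lower in oocytes, and CSTF3, of the complex that cuts the 3′ end of mRNA, had 172 in oocytes and 1005 in GC. The high mobility group protein TOX2 had 104 in oocytes and 582 in GC. NR2F2, also called COUP-TFII, an orphan nuclear receptor of mesenchyme, had 1211 in oocytes and 4629 in GC. TRIB2, a pseudokinase, was bright on both, with 1895 in oocytes and 8720 in GC. TCN2, which carries vitamin B12 in blood, had 386 in oocytes and 1705 in GC, and all 5 of its probe sets were lower in oocytes. SNAP25, a protein of vesicle fusion, had 218 in oocytes and 1130 in GC, and CNRIP1, which binds the cannabinoid receptor, had 347 and 1504. FH, the fumarase of the citric acid cycle, had 787 in oocytes and 3183 in GC, and GABARAPL1, of autophagosomes, had 186 in oocytes and 796 in GC. SMARCAD1, FH and GABARAPL1 were low on PMO alone. On the other 5 LCM arrays SMARCAD1 lay between 306 and 480, FH between 3183 and 4717 and GABARAPL1 between 730 and 1428. CAVIN2, a coat protein of caveolae, had 61.0 in oocytes and 290 in GC.

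Signalling genes were read by their roles. In the BMP, activin and TGF-beta list 4 of 17 ranked genes (23.5%) were 2-fold lower in oocytes and 1 (5.88%) higher, against 10.1% and 11.2% of all genes. The list median was -0.45, but -0.0014 over all its genes without the limit on brightness. Beside the antagonist FST and the subunit INHBA, the type I receptor ACVR1 had 178 in oocytes and 392 in GC, and LTBP1, which holds latent TGF-beta in the matrix, had 3.93 and 90.8. BMP2, a ligand, had 187 in oocytes and 58.7 in GC. The transducers SMAD2 and SMAD4 had 808 and 223 in oocytes against 670 and 384 in GC. The receptor for BMP15 and GDF9, BMPR2, did not separate the cells, with 81.4 in oocytes and 83.3 in GC. Of the FGF ligands, FGF1 and FGF11 had 200.2 and 116 in oocytes against 55.2 and 17.4 in GC, whereas FGF2 had 120 in oocytes and 299 in GC. FGF8, an oocyte factor in the mouse, had 3.87 in oocytes and 64.7 in GC. IGF1R, a receptor for insulin-like growth factors, had 26.8 in oocytes and 61.6 in GC. FGFR2, a receptor for FGF ligands, had 63.4 and 69.7 in the same order. These signals were in part under and otherwise just above the limits. VEGFA, which draws vessels, had 300.3 in oocytes and 885 in GC. In the Notch, Hedgehog and WNT list 1 of 16 was 2-fold higher in oocytes (6.25%, against 11.2% of all genes) and 0 lower, RBPJ, the DNA-binding effector of Notch, with 126 in oocytes and 44.3 in GC. The Notch ligand JAG1 had 2340 in oocytes and 2094 in GC, and CTNNB1, beta-catenin, the effector of WNT, had 473 and 825.

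In the axon guidance list, 4 of 10 ranked genes (40%) were 2-fold lower in oocytes and 0 higher, against 10.1% and 11.2% of all genes. The list median was -0.70, and -0.24 over the 6 genes on both arrays. NRP1, a receptor for semaphorins and VEGF, had 45.1 in oocytes and 193 in GC, and ROBO1, the receptor for SLIT, had 37.1 and 108. NTN4, a netrin found in basal laminae, had 90.6 in oocytes and 223 in GC. DPYSL2, a cytoplasmic mediator, had 1207 in oocytes and 2519 in GC, but another of its ranked probe sets had 108 in oocytes and 7.79 in GC. In the adhesion list, the adaptor BCAR3 had 12.5 in oocytes and 113 in GC and LGALS1, galectin 1, had 186 and 598. CLDN11, a tight junction protein, had 2424 in oocytes and 993 in GC, and ITGAV, the integrin alpha V chain, had 105 and 29.6.

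**Figure D5:**
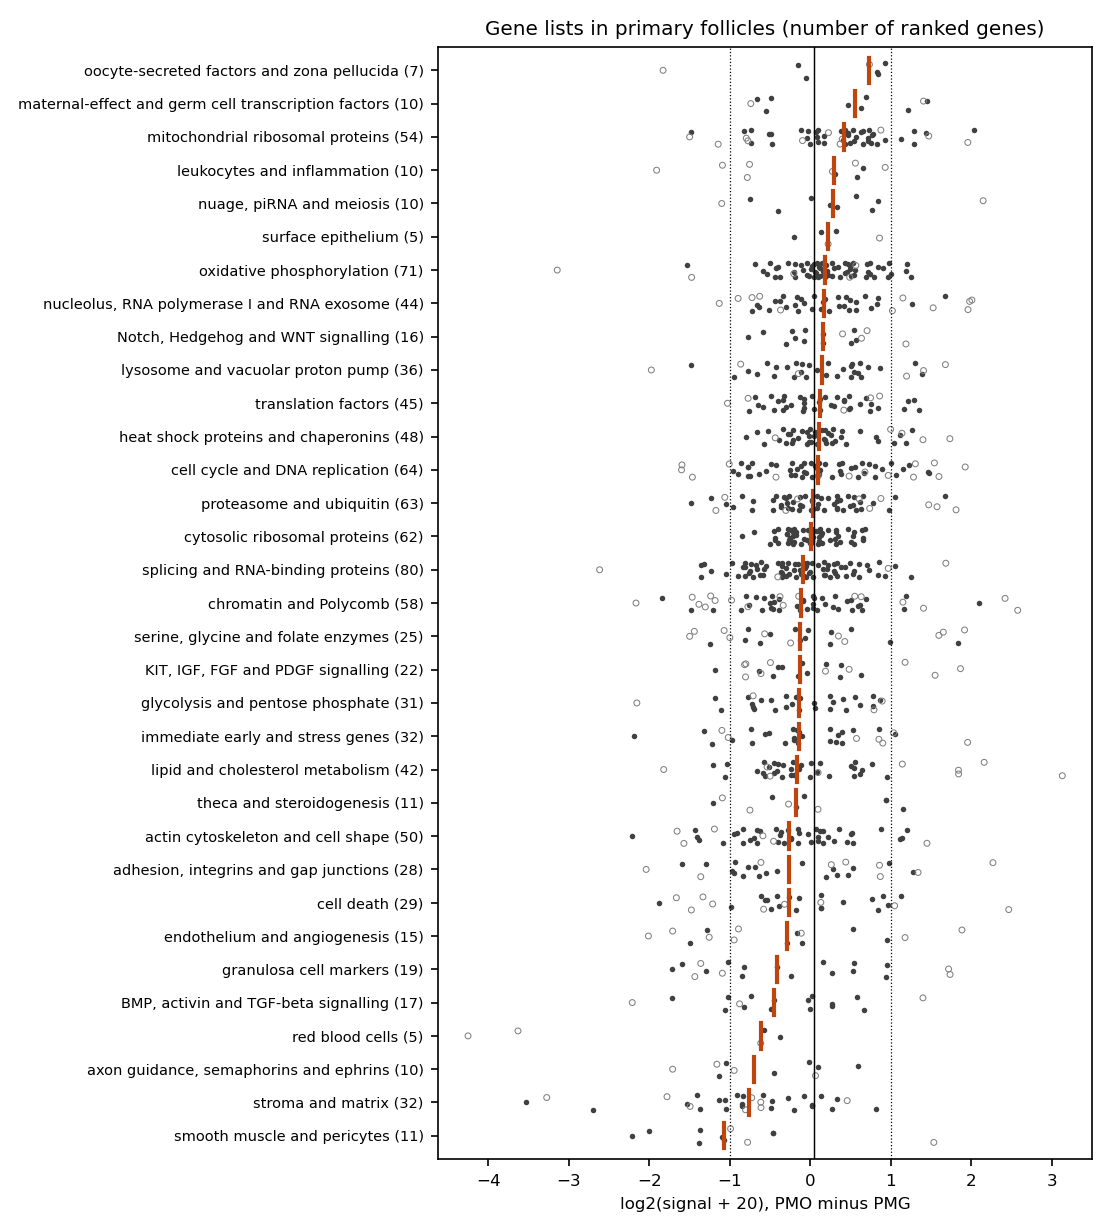
Log2(signal + 20) difference, PMO minus PMG, of every ranked gene (points) in 33 gene lists (rows), with the list median as a red bar and the median of all ranked genes, 0.05, as a solid line. Filled points lie within the brightest 35% on both arrays and open points on 1 alone. Smooth muscle (-1.08) and stroma and matrix (-0.77) have the lowest medians, and the oocyte-secreted factors and zona pellucida (0.73) the highest. Of the 7 ranked genes of that last list 0 were 2-fold higher in oocytes (against 11.2% of all genes). In the same list 1 (14.3%, against 10.1%) was 2-fold lower. With the mean of all probe sets its median was 0.27, below the 0.40 of mitochondrial ribosomal proteins.

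Mitochondrial ribosomal proteins were mostly higher in oocytes by less than 2-fold. The median of 54 ranked was 0.42, against 0.05 over all genes, and 38 were higher in oocytes by any amount. At least 2-fold higher were 7 (13.0%), near the 11.2% of all genes, and 3 were lower (5.56%, against 10.1%). MRPS14 and MRPS15, of the small subunit, had 5054 and 3892 in oocytes against 2063 and 1430 in GC. MRPL37 and MRPS30 had 847 and 824 in oocytes against 334 and 365 in GC. MRPL27 ran the other way, with 107 in oocytes and 334 in GC, as did MRPS11, with 45.2 and 164. The cytosolic ribosomal proteins, by contrast, were even. All 62 ranked were on both arrays, 0 were 2-fold apart either way, and their median was 0.01. RPS3A, the brightest, had 34475 in oocytes and 40151 in GC. Of 71 respiratory chain genes 50 were higher in oocytes, with a median of 0.18, but 4 by 2-fold (5.63%, against 11.2% of all genes), all subunits of complex I (NDUFB6, NDUFA5, NDUFA13 and NDUFB2). NDUFB6 had 2443 in oocytes and 1016 in GC. Beside UQCRC1, the 2-fold lower genes (4.23%, against 10.1%) were COX7A2L, which assembles respiratory supercomplexes, with 240 in oocytes and 731 in GC, and NDUFB1.

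Nucleolar and exosome genes showed 8 of 44 (18.2%, against 11.2% of all genes) that were 2-fold higher in oocytes and 1 lower (2.27%, against 10.1%), with a median of 0.17. Among the 33 on both arrays 2 were 2-fold higher, about the share of all such genes (6.11%). UTP18, which processes ribosomal RNA, had 1284 in oocytes and 390 in GC. EXOSC1, of the RNA exosome that trims and degrades RNA, had 384 in oocytes and 148 in GC. EXOSC2 and EXOSC6 of the same complex had 87.8 and 77.3 in oocytes against 6.83 and 5.06 in GC, and SIRT7, a nucleolar deacetylase, had 112 and 39.7. LAS1L, which also processes ribosomal RNA, ran the other way with 186 in oocytes and 320 in GC. Of 45 translation factors 4 (8.89%) were 2-fold higher in oocytes, all on both arrays, and 1 (2.22%) lower, both below the shares of all genes. The 4 were 3 subunits of initiation factor eIF3 (EIF3D, EIF3I and EIF3J) and EIF4E2, with 1655 in oocytes and 702 in GC for EIF3I. Among 48 chaperones 7 (14.6%, near the 11.2% of all genes) were 2-fold higher in oocytes and 0 lower, led on both arrays by VBP1 and PFDN2, subunits of prefoldin, with 405 and 1162 in oocytes against 157 and 499 in GC. HSPA2, a germ cell member of the HSP70 family, had 377 in oocytes and 164 in GC, while the brightest, HSPA8, had 10017 in oocytes and 17468 in GC.

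Cell cycle genes were 2-fold higher in oocytes for 11 of 64 ranked (17.2%, against 11.2% of all genes) and lower for 4 (6.25%, against 10.1%). Among the 50 on both arrays 6 were higher and 0 lower, against 6.11% and 5.29% of such genes. BUB3, of the spindle checkpoint, was one of the brightest transcripts, with 24972 in oocytes and 12442 in GC, though its other probe set, not ranked, went the other way. Its partner BUB1 had 115 in oocytes and 26.3 in GC. CCNB2, a B-type cyclin of the meiotic and mitotic kinase, had 1265 in oocytes and 559 in GC, and CKS1B, which binds that kinase, had 1186 and 556. CDCA8, borealin, had 524 in oocytes and 177 in GC, while AURKB of the same complex had 35.5 and 91.5. The replication genes MCM7 and RFC4 had 217 and 3140 in oocytes against 58.4 and 1330 in GC. CCNE1, cyclin E, had 6.49 in oocytes and 60.2 in GC. The median of the list, 0.10, was close to that of all genes. Of the 11 genes 2-fold higher in primary oocytes, 8 leaned to the oocyte in primordial and 3 in secondary follicles. None of them was 2-fold higher in oocytes at either of those stages.

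Chromatin genes went both ways, 7 of 58 (12.1%, near the 11.2% of all genes) at least 2-fold higher in oocytes and 9 (15.5%, against 10.1%) lower. Beside RNF2, WDR5 and KAT8, the acetyltransferase KAT7 had 2720 in oocytes and 1182 in GC, and DNMT3B, a de novo DNA methyltransferase, had 74.0 and 15.5. Among sirtuins, SIRT2 had 160 in oocytes and 60.01 in GC, whereas SIRT1 had 61.3 and 270 and SIRT3 had 1.71 and 77.3. SMARCA1 and SMARCA2, motors of chromatin remodelling complexes, had 591 and 587 in oocytes against 1679 and 1378 in GC. The maternal-effect list held 3 genes 2-fold higher in oocytes of 10 (30%, against 11.2%) and 0 lower. These were POU5F1, DNMT3B and IGF2BP3, an mRNA-binding protein, with 417 in oocytes and 168 in GC. In the nuage and meiosis list TDRD6, a Tudor protein of germ granules, had 91.1 in oocytes and 5.12 in GC and ASZ1 ran the other way with 34.0 and 95.7. TDRD3 had 3320 in oocytes and 1849 in GC. MOS, the kinase that arrests the mature egg, had 422 in oocytes and 353 in GC.

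Metabolic lists were split. The lysosome and proton pump list held 5 of 36 genes (13.9%, against 11.2% of all genes) 2-fold higher in oocytes and 2 (5.56%, against 10.1%) lower, with ATP6V1C1, a subunit of the vacuolar proton pump, at 16224 in oocytes and 6205 in GC. ATP6V1D, of the same pump, ran the other way with 119 in oocytes and 368 in GC. In lipid metabolism 5 of 42 (11.9%) were 2-fold higher in oocytes, none of them on both arrays, and 4 (9.52%) lower, close to the shares of all genes. SCD, which makes oleic acid, had 96.3 in oocytes and 249 in GC, and MSMO1, of cholesterol synthesis, had 493 and 1047. In glycolysis 0 of 31 were 2-fold higher in oocytes and 3 (9.68%) lower, among them ALDOA with 270 in oocytes and 602 in GC and SLC16A3, a lactate exporter, with 75.0 and 196. LDHA, which makes lactate, had 2506 in oocytes and 1630 in GC. PHGDH, the first enzyme of serine synthesis, had 236 in oocytes and 430 in GC, and SLC46A1, which takes up folate, had 355 and 85.2. Among stress and early response genes, HIF1A and MYC had 1505 and 193 in oocytes against 3532 and 511 in GC, and SOD2, the mitochondrial superoxide dismutase, had 225 and 43.3. Of splicing genes 6 of 80 (7.5%) were 2-fold lower in oocytes, below the 10.1% of all genes, and 3 (3.75%) higher. The lower ones include SRSF3, SRSF5 and SRSF11, with 287, 571 and 1968 in oocytes against 748, 1499 and 4666 in GC. IL1R1 had 61.7 in oocytes and 47.5 in GC, and IL1B was under the limit on both arrays.

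Red blood cell transcripts differed too. HBB and HBG, globin chains, had 2.00 and 6.64 in oocytes against 398 and 310 in GC, and their near-identical family can share probes. Both ran the other way in secondary follicles, where HBB had 3838 in oocytes and 69.4 in GC. The erythroid markers AHSP and SLC4A1 were under the limit on both primary arrays. The summed red blood cell markers came to 150 on PMO and 890 on PMG, most of the latter from HBB and HBG. HBA and AHSP, under the limits, had 55.6 and 34.4 in oocytes against 33.9 and 5.02 in GC, while the other markers were lower in oocytes. The part of red blood cell transcripts in other differences was not tested. Leukocyte markers summed to 474 and 466 in the same order. The milk protein genes CSN3, CSN1S2 and LALBA, chosen after their values were seen, had 9.53, 70.3 and 23.2 in oocytes against 122, 302 and 183 in GC, and did not exceed 44.5 on the other 4 LCM arrays.

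The other 2 stages, whose arrays are separate hybridizations, show how far the primary differences recur. Of the 1225 probe sets 2-fold higher in primary oocytes, 169 were also 2-fold higher in primordial oocytes, which is 13.8% of the primary and 21.0% of the primordial list, where 6.06% of all ranked probe sets were 2-fold higher in primordial oocytes. With secondary oocytes 147 were shared, 12.0% of the primary and 13.2% of the secondary list, against 7.09% of all ranked probe sets. Of the 1221 that were 2-fold higher in primary GC, 215 (17.6%, and 22.2% of the primordial list) were shared with primordial and 141 (11.5%, and 15.4% of the secondary list) with secondary GC, against 7.66% and 6.95% of all ranked probe sets. Disregarding size, 68.2% of the oocyte list leaned to the oocyte in primordial and 60.8% in secondary follicles, against 50% and 52.9% of all ranked probe sets. The GC list leaned to the GC at 67.4% in primordial and 53.2% in secondary follicles, against 50% and 47.1%. The 30 genes furthest to the GC side leaned to the GC for 25 in primordial but 13 in secondary follicles, against 47.2% and 48% of all ranked genes, so in secondary follicles they did not lean to the GC. The 30 of the oocyte side leaned to the oocyte for 24 and 20, against 52.8% and 52%. Of the 631 genes 2-fold higher in primary oocytes 18 were so at all 3 stages, and of the 567 in GC 29. Counted by probe set, 3.02% of the oocyte list and 3.77% of the GC list were so. Those of the oocyte include RSU1, PPP1R13L, HMGA1, EXOSC2, ATP6V1H, DNAJA3, NEIL2, IGF2BP3 and ME1. The GC genes include FST, NRP1, TPM1, TPM2, MYH11, CALD1, MYC, SPARCL1 and SCD5. NEIL2, a DNA repair glycosylase, had 961 in oocytes and 392 in GC of primary follicles, and ME1, the cytosolic malic enzyme, had 819 and 327. SPARCL1, a matrix protein, had 942 in oocytes and 2419 in GC, and SCD5, a fatty acid desaturase, had 531 and 1601.

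Different probe sets of a gene give the only measure of error within this pair of arrays. Of 729 genes with at least 2 ranked probe sets, the median range of their log2 differences was 0.80, and 39.8% spanned 1 or more, as wide as the 2-fold limit. For 334 genes with at least 2 probe sets on both arrays the median range was 0.51, and 20.4% spanned 1 or more. The 1198 genes 2-fold apart had 151 other ranked probe sets, of which 101 (66.9%) had the same sign and 33 were themselves 2-fold apart the same way. Another 3641 ranked probe sets carry no gene symbol, 430 of them 2-fold higher in oocytes and 536 in GC, and are not described further.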

How the data were processed

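Oocytes and GC of primary, primordial and secondary follicles were captured by laser, 1 array each. The deposited values are linear MAS 5.0 signal intensities. In GCOS the authors scaled each array to a trimmed mean of 100, with 2% taken off at either end, and the versions are not given in the sources used here. Present calls were not used here. Depth does not apply to arrays, and the single array a side limits the precision. Of 24016 probe sets 13292 had 1 symbol in the GEO platform annotation, 86 several and 10638 none. The 112 controls were left out.

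Probe sets among the brightest 35% on PMO or PMG were ranked by log2(signal + 20) with Python 3.11.15, numpy 2.4.6, pandas 2.3.3 and matplotlib 3.10.9, and the ranking was checked on simulated data. Genes are named when they are among the 30 largest differences each way, or the 15 largest on both arrays, when they are markers or genes that the study discusses, or when they are at least 2-fold apart, among the brightest 4, or needed as partners in one of 33 lists. The genes next to the 2-fold limit and some of those 2-fold apart at all 3 stages are named too. The latter were picked with their values in view, and for any gene outside these rules the text says the same. The members and lists were chosen with earlier results of these data known. Alternatives were other constants, a floor, 2 other scalings, other detection limits and other summaries of probe sets. The quantitative PCR is not analysed here.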

Additional observations from a re-analysis of the deposited data

Results flagged for a closer look

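Compared were 266 genes at least 2-fold apart in primary follicles, named in the text or held by its lists. Of these 22 were at least 2-fold apart the other way at another stage, with 10 such values in primordial and 13 in secondary follicles. A value was counted only where the oocyte or the GC signal of that stage passed the limit of its array. Of all probe sets 2-fold higher in primary oocytes, 3.35% were 2-fold the other way in primordial and 4.65% in secondary follicles. For those 2-fold higher in primary GC the shares were 2.78% and 6.96%. With 1 array per cell type and stage the difference between stages was not tested. In primordial follicles the log2 difference of oocytes minus GC was -2.69 for PLAC8B, -1.80 for CALR, -1.48 for FABP5, -1.47 for ITGAV, -1.08 for IRX3, -1.04 for ALDH16A1, -1.03 for C3 and -1.03 for GNMT, all higher in primary oocytes. It was 1.14 for FGF2 and 1.16 for PLK4, both lower in primary oocytes.

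In secondary follicles it was -3.20 for MGP, -1.23 for ITGAV and -1.16 for ACADSB, all higher in primary oocytes. Also in secondary follicles it was 5.43 for HBB, 2.68 for HBG, 2.52 for ISG15, 2.09 for ASZ1, 2.02 for HOXB4, 1.71 for COX7A2L, 1.16 for NEFL, 1.14 for NR2F2, 1.12 for MRPS11 and 1.08 for FN1, all lower in primary oocytes. HBB had 3838 on SECO and 69.4 on SECG, against 2.00 on PMO and 398 on PMG. ISG15 had 708 on SECO and 107 on SECG, against 5.10 on PMO and 186 on PMG. ITGAV was the gene that ran the other way at both other stages. HSD17B1, lower in primary oocytes, had a difference of 1.10 in primordial follicles. It is not counted because both primordial arrays were under their limits for it. Further genes of the lists were left out for the same reason.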

How the results depend on the processing

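No paired analysis was possible because each group holds 1 array, and no replicate could be left out. The 2-fold counts, 1225 in oocytes and 1221 in GC, fell to 719 and 698 with a constant of 50, to 752 and 769 with the brightest 25%, and to 359 and 394 with the brightest 35% on both arrays. They were 2101 and 2040 with the brightest 50%, 2535 and 2496 without a filter, and 631 and 567 with 1 value a gene. The 4-fold counts, 154 in oocytes and 136 in GC, were 578 and 486 with a constant of 1, 9 and 33 with a constant of 50, 301 and 274 with a floor at 20, 14 and 22 on both arrays, and 68 and 68 by gene. A floor at each array's limit, chosen after seeing the data, left 675 and 717 at 2-fold and 36 and 56 at 4-fold. Fewer probe sets entered the stricter filters, and the cause of the other changes was not tested. Quantile normalization and scaling to equal medians kept all counts within 1.5 times, and every setting kept the median difference within 0.1 of its main value. Of 266 genes at least 2-fold apart 10 changed sign, all with the mean of their probe sets: BAG6 (0.045), BUB3 (-0.20), COL11A1 (0.11), DPYSL2 (0.082), EPAS1 (-0.32), FLT1 (-0.00044), FN1 (0.12), PECAM1 (0.15), THAP3 (-0.24) and UBE2H (0.21). Of 11 other named genes AMH, under the limit on both arrays, changed sign (0.0091) with a floor at each array's limit. That floor replaced both of its signals, so this value is the log2 ratio of the limits and says nothing of AMH. Of 33 list medians 27 kept their sign at every setting run, and 6 did not: cytosolic ribosomal proteins, leukocytes, theca, adhesion, and both receptor signalling lists (KIT to PDGF, and Notch to WNT).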
